A study of Mus musculus with 61 samples.

Results

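Striatal projection neurons carry a set of transcription factors that fix their identity in development and remain expressed in the adult. The genes Foxp1, Foxp2, Bcl11b, Ebf1, Isl1, Meis2, Rarb, Sp9, Six3 and Zfp503 were taken by symbol from the count table. They are 10 of its 55401 gene identifiers, and all 10 passed the filter on low counts. Total RNA was sequenced from fluorescence-sorted nuclei, dissected from the nucleus accumbens (ventral striatum). The mice were males in which LSL-eGFP::L10a, a Cre-dependent fusion of GFP to a ribosomal subunit protein, was crossed to D2-Cre or D1-Cre. All groups carried the reporter and a Cre driver, got daily injections over 15 days, spent 30 days in the home cage and were killed 1 h after a challenge injection. The 61 libraries fall into 8 groups, named by driver and then by repeated treatment and challenge (M for morphine, S for saline). D2 had 7 MM, 8 MS, 7 SM and 7 SS libraries, and D1 had 7 MM, 9 MS, 8 SM and 8 SS libraries. Ages were not given in the labels, and doses were not assigned to mice there. Nor do the labels say whether a library came from 1 mouse or several, so p-values measure the spread between libraries. Each driver marks nuclei by activity of a receptor gene, and the D2 receptor gene is also known to be active in cholinergic interneurons.

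As background, projection neurons of the direct pathway express the dopamine D1 receptor, and those of the indirect pathway express the D2 receptor. Isl1, a LIM homeodomain factor, and Ebf1, a helix-loop-helix factor, are known for the development of the direct pathway. Sp9, a zinc finger factor of the Sp family, and Six3, a homeodomain factor, are known for the development of the indirect pathway. Zfp503, also called Nolz1, is a zinc finger protein of striatal progenitors. Bcl11b, also called Ctip2, the forkhead factors Foxp1 and Foxp2, the homeodomain factor Meis2 and the retinoic acid receptor Rarb act in projection neurons more widely. Isl1 is also a marker of cholinergic interneurons.

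The results turn on Sp9 and Isl1, so their start regions are shown, from RefSeq on GRCm38.p6, with 250 bases before and 50 after the start. The Sp9 gene lies at chr2:73271925-73284706 on the plus strand of mm10, and the window is chr2:73271676-73271975. The Isl1 gene lies at chr13:116298281-116309689 on the minus strand, and the window is chr13:116309639-116309938. Capitals mark a GC box, the letters GGGCGG on either strand, which factors of the Sp family are known to bind.
Sp9: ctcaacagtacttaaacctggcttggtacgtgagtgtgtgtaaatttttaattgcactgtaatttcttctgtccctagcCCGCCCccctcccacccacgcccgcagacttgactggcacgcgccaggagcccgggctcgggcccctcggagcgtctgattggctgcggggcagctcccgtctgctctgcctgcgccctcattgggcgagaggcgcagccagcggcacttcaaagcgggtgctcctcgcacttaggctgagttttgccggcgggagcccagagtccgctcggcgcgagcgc
Isl1: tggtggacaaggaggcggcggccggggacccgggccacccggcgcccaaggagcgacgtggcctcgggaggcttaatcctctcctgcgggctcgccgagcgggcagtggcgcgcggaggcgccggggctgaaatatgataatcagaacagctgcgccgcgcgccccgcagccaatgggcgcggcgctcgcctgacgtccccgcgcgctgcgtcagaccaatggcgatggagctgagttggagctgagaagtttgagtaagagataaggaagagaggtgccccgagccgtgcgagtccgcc
The Sp9 window held 1 GC box, 63.7% G and C and 25 CpG dinucleotides. The Isl1 window had no GC box, 69% G and C and 37 CpG dinucleotides. Over 32851 promoter windows in the table the medians were 52.7% and 7. Among 12 windows of 9 members, GC boxes stood in 3, against 35.7% of all promoters. The homeodomain core TAATTA stood in 1 (5.29% of all), the Meis core TGACAG in 3 (19.2%) and the EBF palindrome CCCNNGGG in 2 (13.7%). The forkhead core TGTTTAC (3.65%) and the retinoic acid half-site AGGTCA (16.3%) stood in none of them. Both strands were searched for every motif, none of which contains another, and no match says only that these letters are not in the window.

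The deposited counts cover whole gene spans, introns included, and totals ran from 11518606 to 26108954 per library with a median of 17924400. Counts per library differed between members. Foxp1, spanning 597.4 kb at chr6:98925338-99522721, had 5529 to 31753 counts per library, whereas Zfp503, spanning 5.6 kb at chr14:21983959-21989601, had 61 to 180. Isl1 had 83 to 416 counts and Sp9 92 to 398. The labels were checked with the receptor genes. Drd2, the D2 receptor gene, had 296 to 2405 scaled CPM (counts brought to a common library total with TMM factors) in D2 libraries, against 48.1 to 270 scaled CPM in D1 libraries. Drd1, the D1 receptor gene, had 5.37 to 27.3 scaled CPM in D2 libraries, against 25.4 to 270 scaled CPM in D1 libraries. Over the 4 treatments Drd2 differed by 3.31 ± 0.17 and Drd1 by -2.67 ± 0.18 on the log2 scale, D2 over D1 (SE). The Drd2 ranges did not overlap, and the Drd1 ranges did at their edges.

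How far each member stood above background was measured per length. Sensory receptor genes (1464 olfactory and vomeronasal ones) are not known to be used in the striatum. Their counts were summed in a library and divided by their spans and by its total count. A member at 1 times this density has as many counts per kb as those silent genes. Over all gene spans this density would make up 33.1% (D1 SM replicate 2) to 86.3% (D1 SM replicate 8) of the counts. D1 SS replicate 1 was lower, at 7.46%. Background was not subtracted from the scaled CPM or the fold changes given here. Meis2 and Bcl11b had the highest medians. Meis2 stood at 4.29 times background in D2 libraries and 4.14 times in D1 libraries, and Bcl11b at 3.83 times in D2 and 4.35 times in D1. Rarb (2.59 and 2.78 times), Six3 (2.68 and 2.66 times), Foxp1 (2.47 and 2.24 times) and Zfp503 (2.02 and 2.05 times) followed, in D2 and in D1. Neighbours in that order had overlapping ranges over libraries. The lowest were Sp9 (1.97 times in D2, 1.37 times in D1), Isl1 (1.63 times in D2, 2.31 times in D1), Foxp2 (1.34 times in D2, 1.70 times in D1) and Ebf1 (1.40 times in D2, 1.54 times in D1). For comparison, medians of 23 markers of oligodendrocyte lineage, astrocytes, microglia and endothelium ran from 0.791 to 1.96 times background in D2 and from 0.847 to 2.16 times in D1. Foxp2 and Ebf1 lay within that range in both classes, Isl1 in D2 only and Sp9 and Zfp503 in D1 only. Summed levels of those 23 markers were 597 to 758 scaled CPM in D2 libraries and 598 to 771 in D1 libraries, with none of them at 0 counts in a group.

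**Figure D1:**
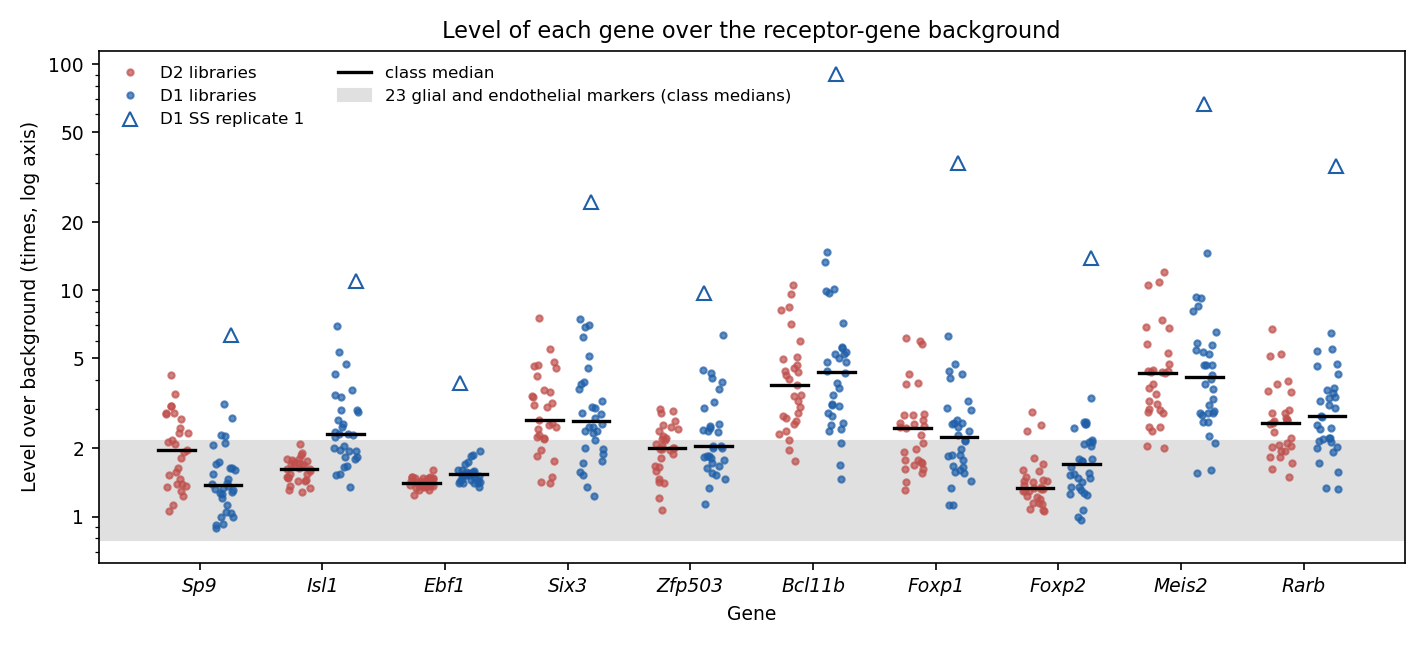
Level of the 10 genes over the receptor-gene background (times, log axis) in each D2 library (red) and D1 library (blue), with class medians as bars and D1 SS replicate 1 as open triangles. The grey band runs from 0.791 to 2.16 times, the class medians of 23 glial and endothelial markers. Bcl11b, Meis2, Rarb, Six3 and Foxp1 have medians above the band in both classes, and Isl1 in D1 only. Ebf1 lies inside it in every library but D1 SS replicate 1.

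A single library stood apart. D1 SS replicate 1 had a background of 0.057 CPM per kb, against 0.253 in the next lowest library, and a TMM factor of 0.388, against 0.811 in the next lowest. In it the members stood at 3.88 times background (Ebf1) to 90.5 times (Bcl11b), with Meis2 at 66.5, Foxp1 at 36.5, Rarb at 35.4, Six3 at 24.5, Foxp2 at 13.9, Isl1 at 11.0, Zfp503 at 9.75 and Sp9 at 6.35 times. Over the other libraries the medians of the 10 ran from 1.44 times (Foxp2) to 4.14 times (Meis2). In D1 SS replicate 1, 8 cortical neuron markers had a median of 20.1 times (1.97 for Slc17a6 to 202 for Slc17a7, both glutamate transporter genes). In the same library 7 D1 markers had 80.8 times (2.18 for Eya1 to 414 for Chrm4) and 6 D2 markers 30.8 times (6.71 for Ptprm to 200 for Penk). Markers of other interneurons had a median of 3.68 times (1.33 for Th to 270 for Sst), and cholinergic ones 1.53 times (0.285 for Slc18a3 to 5.35 for Ecel1). Its Drd2 level of 270 scaled CPM was the highest among D1 libraries and under every D2 library. The part of other cell types in this library's values was not tested. Results that rest on it are given with and without it.

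Sp9 was higher and Isl1 lower in D2 nuclei than in D1 nuclei over the 4 treatments. Of the 10 members, 2 passed the test, against 0.301% of the 42870 genes tested. The test was edgeR's quasi-likelihood fit over all 61 libraries, with Benjamini-Hochberg adjusted p under 0.05 over all genes as the call. Sp9 averaged 12.3 ± 3.58 scaled CPM in D2 libraries (SD, n = 29) and 8.58 ± 1.88 in D1 libraries (SD, n = 32). Its log2 fold change, D2 over D1, was 0.48 ± 0.08 (SE) with an adjusted p of 0.000218 in edgeR. In 24 of 29 D2 libraries Sp9 lay above the D1 median in scaled CPM, and 12 lay above every D1 library. Per background, 23 lay above the D1 median and 0 above every D1 library, of which D1 SS replicate 1 was highest. Isl1 averaged 8.67 ± 0.95 scaled CPM in D2 libraries (SD, n = 29) and 13.4 ± 4.04 in D1 libraries (SD, n = 32). Its log2 fold change was -0.62 ± 0.08 (SE) with an adjusted p of 5.4e-07 in edgeR. All 29 D2 libraries lay under the D1 median of Isl1 in scaled CPM, and 13 lay under every D1 library. Per background, all 29 lay under the D1 median and 3 under every D1 library. Both calls held in 11 of 11 other settings, with log2 values of 0.45 to 0.57 for Sp9 and -0.66 to -0.51 for Isl1. The adjusted p over these settings ran from 4.84e-12 to 0.00578 for Sp9 and from 2.28e-09 to 3.9e-06 for Isl1. In bulk nuclei, fewer cells of a type and less RNA per cell cannot be told apart. Over all treatments, 9 genes (0.021%) had no overlap between D2 and D1 libraries in scaled CPM, and no member was among them. The gene Cir1 covers 12.5% of the Sp9 span on the opposite strand.

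Group by group, Sp9 medians were highest in the D2 groups of repeated morphine, though edgeR called no treatment difference of Sp9 within D2. Mean background was 0.436 CPM per kb in D2 MS and 0.474 in D2 MM, against 0.537 in D2 SM and 0.512 in D2 SS. Its part in this order was not tested. The lowest, median and highest Sp9 values were 7.62, 13.7 and 17.9 scaled CPM in D2 MM, 9.75, 15.2 and 21.5 in D2 MS, 7.47, 10.1 and 14.9 in D2 SM and 8.29, 9.81 and 12.7 in D2 SS. In D1 nuclei they were 6.24, 9.07 and 12.8 scaled CPM in MM, 5.98, 7.94 and 9.24 in MS, 6.04, 8.27 and 12.5 in SM and 6.43, 9.13 and 11.9 in SS. In scaled CPM the groups D2 MS and D1 MS did not overlap, and the other 3 pairs at a matched treatment did. Per background, D2 MS and D1 MS did overlap, with 6 of 8 D2 libraries above every D1 library. How many of all genes do not overlap within a treatment was not counted. Ranked by median, neighbours overlapped throughout, from D1 MS at the bottom to D2 MS at the top.

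Isl1 varied less among D2 libraries than among D1 libraries. Its lowest, median and highest values were 7.79, 8.42 and 9.21 scaled CPM in D2 MM, 5.81, 8.66 and 10.1 in D2 MS, 8.79, 9.46 and 10.2 in D2 SM and 6.74, 8.38 and 9.81 in D2 SS. In D1 nuclei they were 10.9, 12.9 and 20.2 scaled CPM in MM, 9.52, 11.5 and 27.2 in MS, 8.67, 13.0 and 19.1 in SM and 9.43, 11.4 and 18.4 in SS. D2 MM and D1 MM did not overlap, and the other matched pairs did. The share of all genes without overlap in MM was not counted. Every D1 group had a higher median than every D2 group, and neighbours in that order overlapped. Cholinergic markers, which Isl1 joins in interneurons, lay at 0.696 to 1.72 times background in D2 and 0.582 to 1.59 times in D1, with 0 of 8 at 2 times or more. Their summed level was 96.6 to 131 scaled CPM in D2 libraries and 48.0 to 130 in D1 libraries. None of the 8 was called between the classes, and their part in the Isl1 values was not tested.

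**Figure D2:**
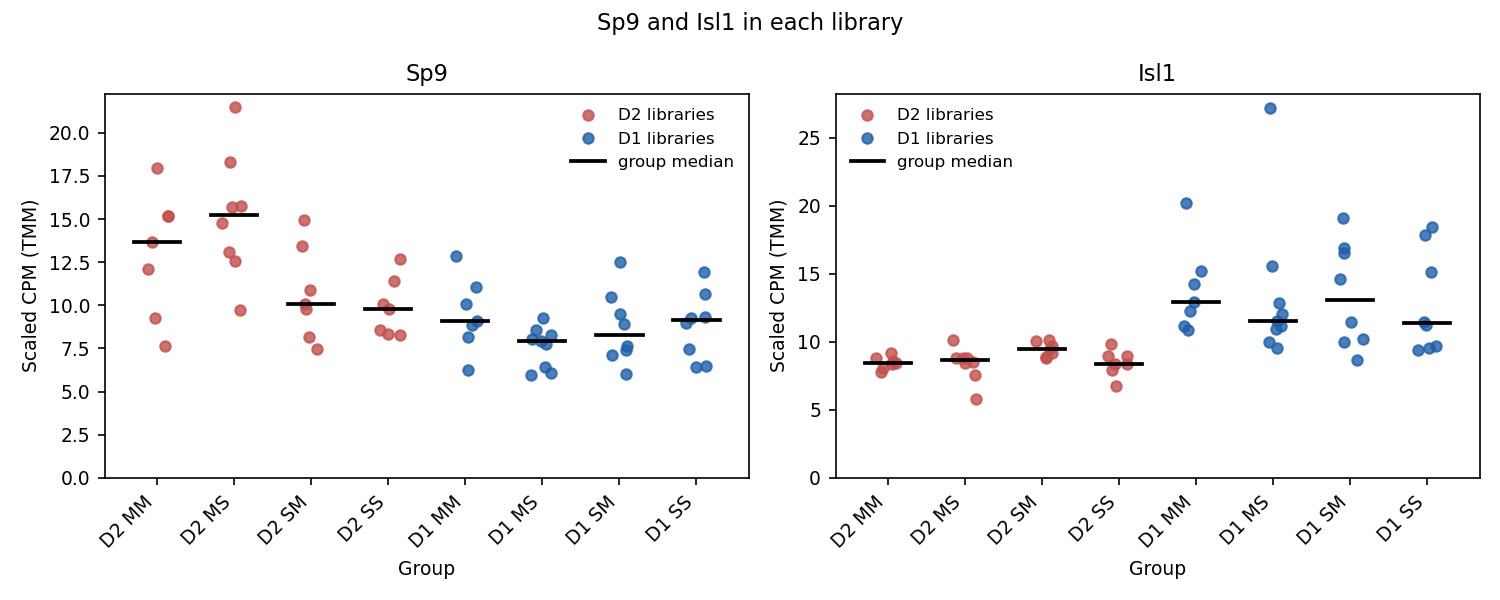
Scaled CPM of Sp9 (left) and Isl1 (right) in each library of the 8 groups, D2 in red and D1 in blue, with group medians as bars. Sp9 is highest in D2 MS (median 15.2) and D2 MM (median 13.7), and Isl1 medians run from 8.38 to 9.46 in D2 groups and from 11.4 to 13.0 in D1 groups.

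The other factors tied to a pathway did not pass the test over the 4 treatments. Ebf1, at chr11:44617317-45008091, had 207, 265 and 295 scaled CPM (lowest, median, highest) in D2 libraries, against 223, 272 and 301 in D1 libraries. The log2 fold change of Ebf1 was -0.06 ± 0.04 (SE), with an adjusted p of 0.445 in edgeR. With the log2 background density as a covariate it was -0.09 ± 0.02, called at an adjusted p of 0.00907, and the adjusted p over 11 other settings ran from 2.29e-05 to 0.659. Per background, 28 of 29 D2 libraries lay under the Ebf1 median of D1. Six3, at chr17:85613608-85629302, had 11.6, 21.6 and 47.3 scaled CPM in D2 libraries, against 10.9, 18.9 and 56.7 in D1 libraries. For Six3 the log2 fold change was -0.03 ± 0.13 (SE), and 0.04 ± 0.13 without D1 SS replicate 1. Zfp503 had 3.14, 5.43 and 7.71 scaled CPM in D2 libraries, against 3.62, 5.52 and 12.3 in D1 libraries, with a log2 fold change of -0.20 ± 0.09 (SE). The antisense gene Six3os1 covers 30.5% of the Six3 span, and since the strand setting of the counting is not given, their reads cannot be told apart.

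The factors of projection neurons in general did not pass the test either, and for Foxp1 and Meis2 the sign turned when D1 SS replicate 1 was left out. Foxp2, a forkhead factor at chr6:14901349-15441977, had 290, 344 and 603 scaled CPM in D2 libraries, against 288, 414 and 1107 in D1 libraries. Foxp2 had a log2 fold change of -0.28 ± 0.09 (SE), with an adjusted p of 0.281 in edgeR, and 25 of 29 D2 libraries lay under the D1 median. Without D1 SS replicate 1 it was -0.21 ± 0.07. Bcl11b, at chr12:107910403-108003602, had 92.6, 176 and 392 scaled CPM in D2 libraries, against 77.1, 186 and 1243 in D1 libraries. Bcl11b had a log2 fold change of -0.35 ± 0.19 (SE), and -0.15 ± 0.15 without that library. Rarb, at chr14:16430839-16819156, had 325, 455 and 1009 scaled CPM in D2 libraries, against 283, 490 and 2026 in D1 libraries. The log2 fold change of Rarb was -0.18 ± 0.13 (SE), and -0.05 ± 0.10 without that library.

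Foxp1 had 439, 637 and 1599 scaled CPM in D2 libraries, against 369, 606 and 3215 in D1 libraries. Its log2 fold change was -0.01 ± 0.14 (SE) with all libraries and 0.15 ± 0.11 without D1 SS replicate 1. With the background covariate Foxp1 was higher in D2 nuclei by 0.26 ± 0.06, called at an adjusted p of 0.00697, against 0.597% of all genes called in that setting. The adjusted p of Foxp1 over 11 other settings ran from 0.000511 to 0.985. Meis2, at chr2:115863064-116065839, had 216, 398 and 952 scaled CPM in D2 libraries, against 174, 381 and 1985 in D1 libraries. Meis2 gave -0.12 ± 0.17 with all libraries, 0.04 ± 0.14 without that library and 0.20 ± 0.08 with the covariate. The gene model Gm20696 covers 44.4% of the Foxp1 span on the same strand, so Foxp1 reads could be split between them.

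**Figure D3:**
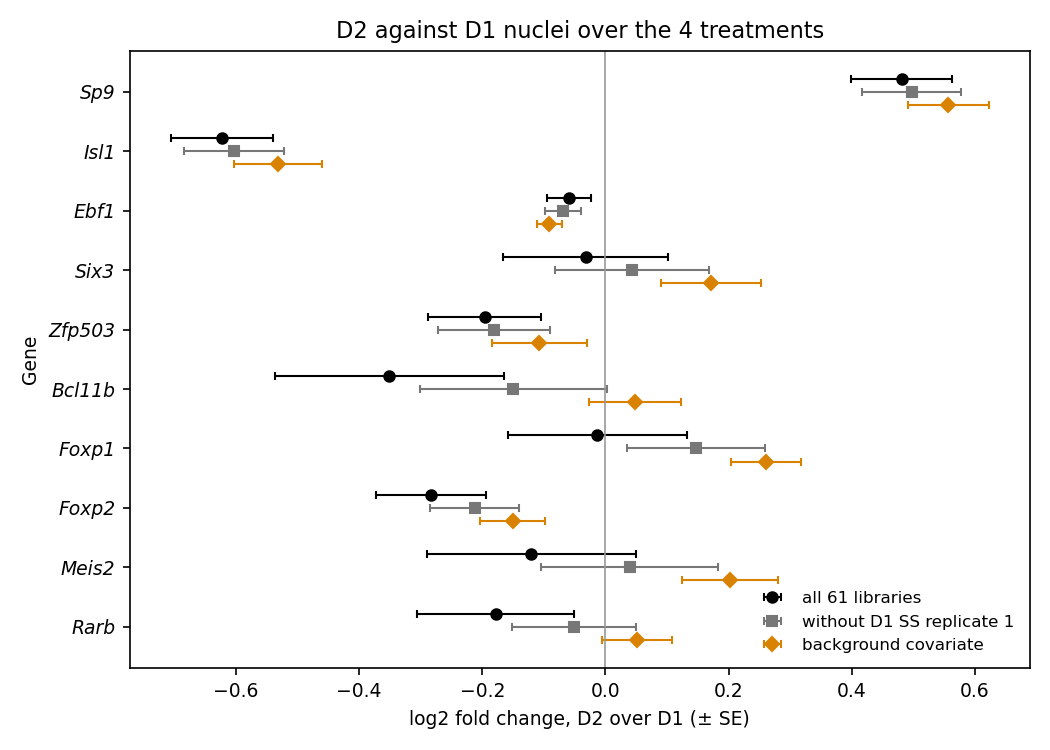
Log2 fold change of each gene, D2 over D1 nuclei over the 4 treatments, with its SE, for all 61 libraries (black circles), without D1 SS replicate 1 (grey squares) and with the background density as a covariate (orange diamonds). Sp9 stays near 0.5 and Isl1 between -0.62 and -0.53, while Foxp1 is at -0.01, 0.15 and 0.26.

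Most members were lower in libraries of higher background, with Ebf1 and, in D2, Isl1 as exceptions. Over 20 relations (10 genes in each of 2 classes), scaled CPM was compared with background density on log2 axes within each class, with permutation p-values of 100000 draws adjusted over the 20. The smallest p these can give is 1e-05, which is 1.3e-05 when adjusted. Bcl11b was lower where background was higher, with Pearson r of -0.93 in D2 libraries (n = 29) and -0.92 in D1 libraries (n = 32), each at the smallest permutation p. Spearman's rho was -0.90 in D2 and -0.95 in D1, and r without the 2 libraries farthest from the median background was -0.92 in D2 and -0.96 in D1. Sp9 had r of -0.87 in D2 and -0.61 in D1, with rho of -0.88 and -0.67 (adjusted permutation p of rho 1.2e-05 in D2 and 9.4e-05 in D1). Leaving out those libraries gave r of -0.87 in D2 and -0.64 in D1. Ebf1 ran the other way, with r of 0.96 in D2 and 0.83 in D1, rho of 0.94 in D2 and 0.90 in D1 and r of 0.94 in D2 and 0.87 in D1 without those libraries, with each p at the smallest that permutations can give. Isl1 in D1 had r of -0.64 and rho of -0.81 (adjusted permutation p 0.00019 and 1.2e-05), and r of -0.83 without them. Isl1 in D2 had r of 0.45 and rho of 0.37 (adjusted permutation p 0.013 and 0.047), and r of 0.26 without them, so that relation rests on those libraries. The other 6 genes had r of -0.92 (Meis2) to -0.52 (Zfp503) in D2 and of -0.96 (Foxp1) to -0.57 (Zfp503) in D1, with adjusted permutation p of 0.0037 or less. Both axes are shares of the same total count, and scaled CPM includes background counts. A relation is therefore partly built in, and its p-value does not describe the members alone. Ebf1 stood at 1.40 times background in D2 and 1.54 times in D1, and Foxp2 at 1.34 and 1.70 times. The part of the level over background in these signs was not tested, nor was the difference between the classes.

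**Figure D4:**
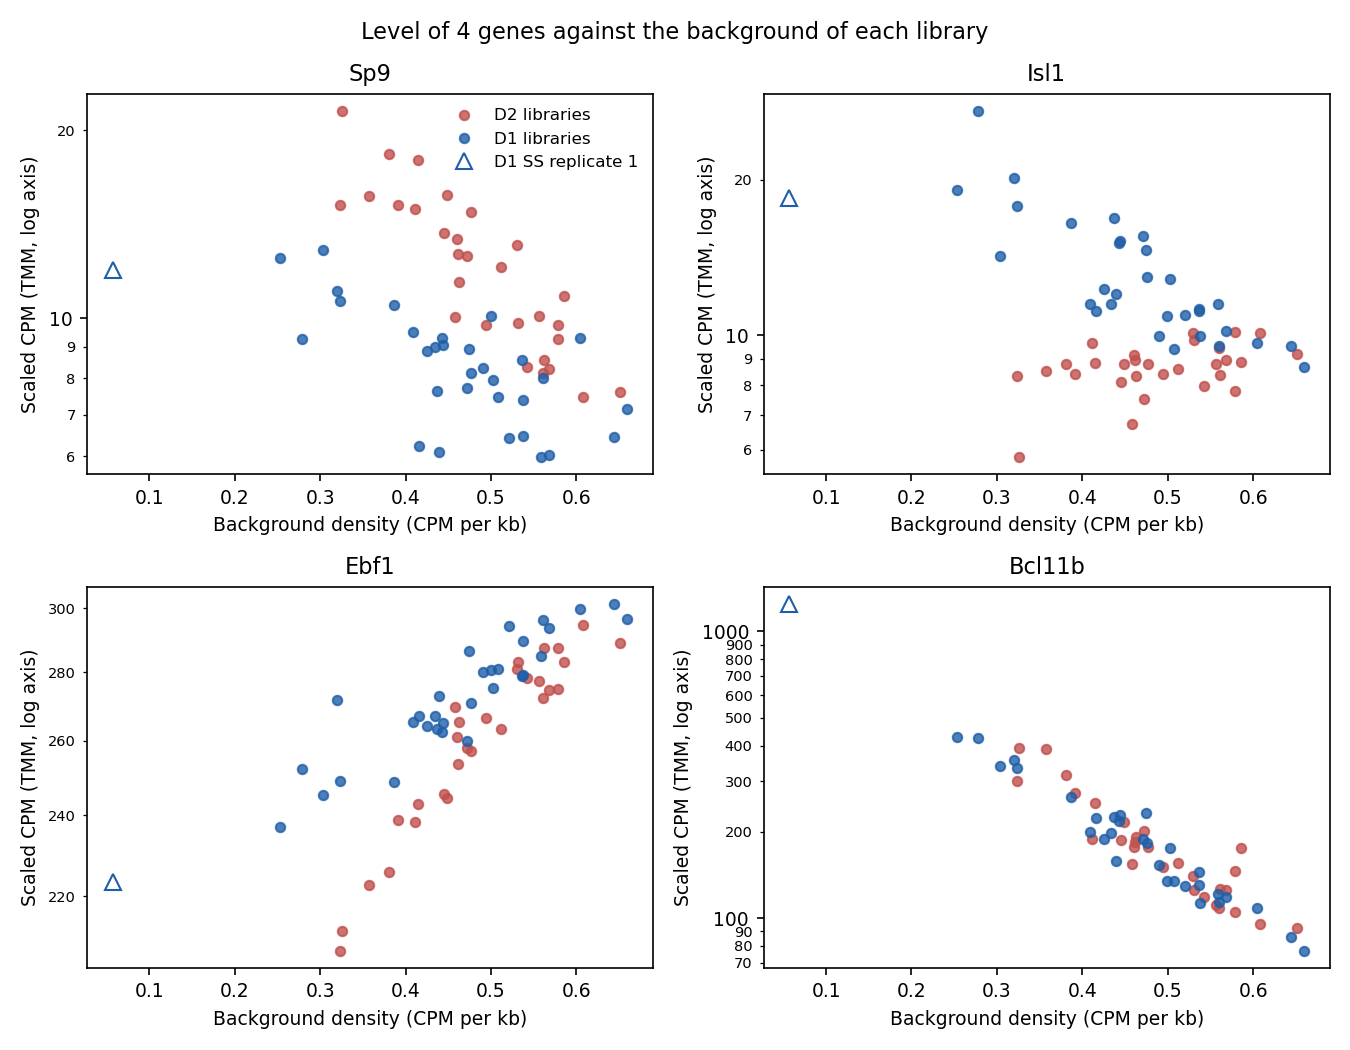
Scaled CPM (log axis) of Sp9, Isl1, Ebf1 and Bcl11b against the background density of each library in CPM per kb, D2 in red and D1 in blue, D1 SS replicate 1 as an open triangle. Bcl11b falls with background in both classes and Ebf1 climbs, while Isl1 falls in D1 and shows little slope in D2.

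Within a treatment, D2 and D1 nuclei differed for 1 member in 1 of 4 comparisons. In MS, Sp9 had a log2 fold change of 1.00 ± 0.16 (SE), with an adjusted p of 5.66e-05 in edgeR, and 0.0746% of all genes were called. All 12 other settings called it there, with log2 values of 0.88 to 1.03 and adjusted p from 1.07e-08 to 0.000674. In SS, where history and challenge were saline, Sp9 stood at 0.17 ± 0.17, in SM at 0.29 ± 0.17 and in MM at 0.46 ± 0.17. Isl1 had negative values at each treatment and passed at none with edgeR on all libraries. It stood at -0.71 ± 0.17 in MM (adjusted p 0.117 in edgeR), -0.68 ± 0.16 in MS (0.0755), -0.51 ± 0.17 in SM (0.894) and -0.60 ± 0.17 in SS (0.0983). The shares of all genes called were 0.056% in MM, 0.0303% in SM and 0.0467% in SS. No member passed in MM, SM or SS with edgeR. DESeq2 called none in MM and SM and 6 members in SS (Bcl11b, Foxp1, Foxp2, Isl1, Meis2 and Rarb), beside 22.8% of all genes, and limma voom called 0 in the 3. In SS the edgeR value was -1.07 ± 0.38 for Bcl11b (adjusted p 0.0983), and without D1 SS replicate 1 no member had an adjusted p under 0.924. Over 12 other settings Isl1 was called in 5 in MM (adjusted p 0.0255 to 0.412) and in 4 in MS (0.000353 to 0.667). Without D1 SS replicate 1, Isl1 in MS was called at an adjusted p of 0.0411. Without D1 MS replicate 2, its highest library, Isl1 in MS was -0.49 (adjusted p 0.501) and in MM -0.70, called at an adjusted p of 0.028.

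Morphine history and challenge changed no member by the test within either class. The 12 comparisons asked about the challenge alone (SM against SS), the history (MS against SS), both (MM against SS), either on top of the other (MM against MS and SM) and the interaction of challenge and history. In all 12, edgeR called 0 of 10 members and 0% of all genes, with 550 to 13164 genes at an unadjusted p under 0.05. In D2 nuclei the members at an unadjusted p under 0.05 were 7 in MS against SS, 3 in MM against SS, 2 in MM against SM (Rarb and Meis2) and 0 in the other 3. In D1 nuclei, 0 members had an unadjusted p under 0.05 in edgeR in any of the 6, and DESeq2 and limma voom called 0 members. Log2 values in D1 ran from -0.77 (Bcl11b, MS over SS) to 0.96 (Bcl11b, interaction). Without D1 SS replicate 1, Bcl11b in MS over SS was 0.02 and Foxp1 0.01, against -0.77 and -0.63 with it.

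D2 nuclei of MS mice came nearest to the threshold. There 8 of 10 members stood above SS, at a median log2 value of 0.51 against -0.05 over all genes. The values were 0.74 ± 0.25 for Bcl11b, 0.71 ± 0.26 for Meis2, 0.67 ± 0.22 for Foxp1, 0.63 ± 0.22 for Six3, 0.60 ± 0.16 for Sp9 and 0.42 ± 0.18 for Rarb. Foxp2 stood at 0.25 ± 0.13 and Zfp503 at 0.10 ± 0.13. Ebf1 was at -0.17 ± 0.07 and Isl1 at -0.03 ± 0.09. Their adjusted p in edgeR ran from 0.0713 (Sp9) to 0.83 (Isl1), and 7 members and 13164 of 41125 genes had an unadjusted p under 0.05. With DESeq2 size factors 9 of 10 stood above SS. DESeq2 called 5 members and 19.4% of all genes, and limma voom called 0. Bcl11b had 140, 209 and 392 scaled CPM in D2 MS, against 119, 126 and 192 in D2 SS, so the groups overlapped. Background density was 0.436 ± 0.0725 CPM per kb in D2 MS (SD, n = 8) and 0.512 ± 0.0499 in D2 SS (SD, n = 7). With it as a covariate the values were 0.21 for Bcl11b, 0.16 for Meis2, 0.21 for Foxp1, 0.22 for Six3, 0.32 for Sp9 and 0.07 for Rarb, with adjusted p of 0.292 or more.

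In MM against SS in D2, 3 members had an unadjusted p under 0.05, Rarb (0.44 ± 0.19), Meis2 (0.61 ± 0.27) and Sp9 (0.37 ± 0.16), and the smallest adjusted p in edgeR was 0.362. In SM against SS all 10 lay between -0.09 and 0.16. The difference between classes in the MS response was largest for Bcl11b, at 1.55 ± 0.51, with Foxp1 at 1.33 ± 0.40, Meis2 at 1.31 ± 0.47, Six3 at 0.97 ± 0.37, Rarb at 0.84 ± 0.35 and Sp9 at 0.83 ± 0.23. Over 11 other settings it ran from 0.27 to 1.91 for Bcl11b, 0.32 to 1.65 for Foxp1 and 0.17 to 1.64 for Meis2. For Six3 it ran from 0.34 to 1.19, for Rarb from 0.03 to 1.13 and for Sp9 from 0.58 to 0.96. The D1 side of this difference changed when D1 SS replicate 1 was left out, as given above for Bcl11b and Foxp1. EdgeR called 0 of 10 (adjusted p 0.149 or more), with 6 members and 10571 of 42870 genes at an unadjusted p under 0.05. DESeq2 called 6 members beside 14.4% of all genes. Without D1 MS replicate 2, which had the highest Bcl11b of its group, edgeR called 5 members, beside 11.8% of all genes. The differences in SM against SS, MM against SS and MM against MS had 0 members called by edgeR, beside 0% of all genes. DESeq2 and limma voom called 0 members in them.

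**Figure D5:**
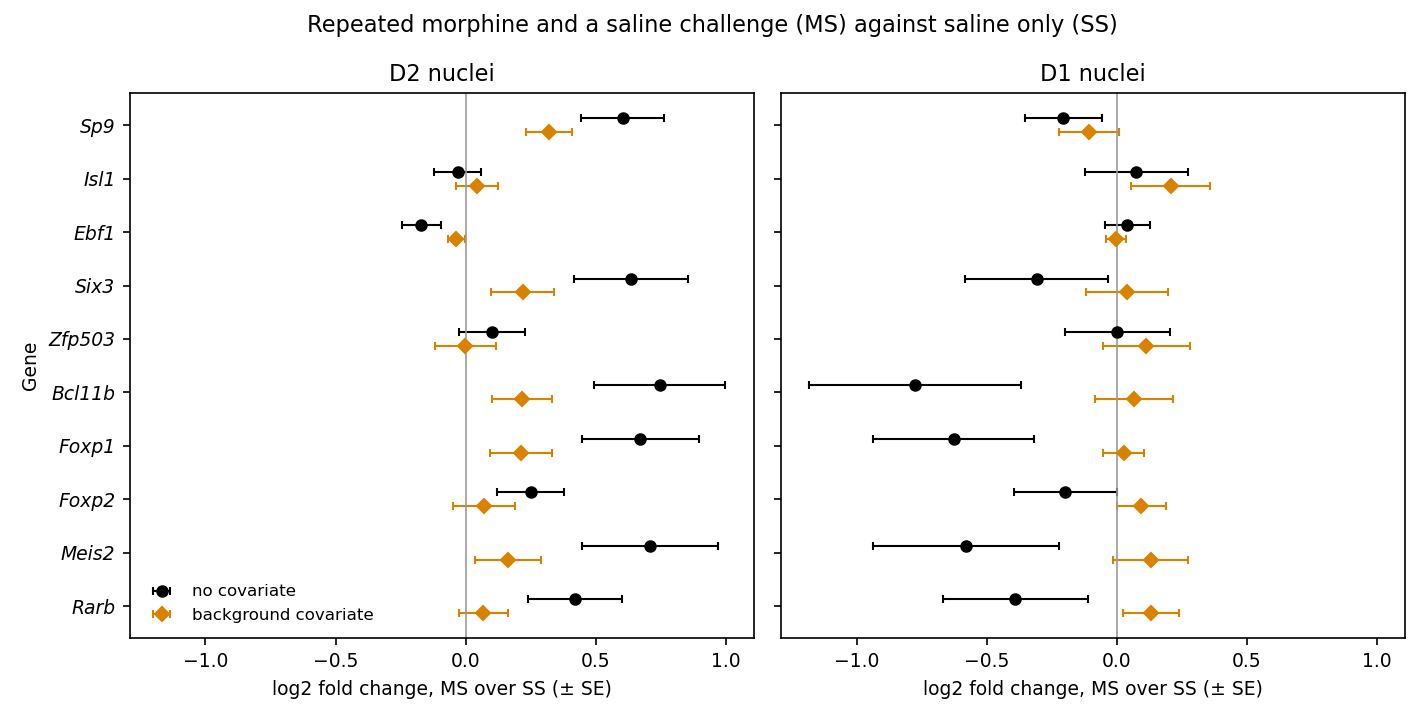
Log2 fold change of each gene in MS over SS with its SE, in D2 nuclei (left) and D1 nuclei (right), without a covariate (black circles) and with the background density as one (orange diamonds). In D2, Bcl11b is at 0.74 without and 0.21 with the covariate, and in D1 at -0.77 and 0.07.

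Relatives and partners of the members did not pass the test between the classes. Of 19 such genes (among them Foxp4, Bcl11a, Ebf2 to Ebf4, Isl2, Meis1, Pbx3, Rara, Rxrg and Sp8), edgeR called 0 over the 4 treatments, and the median log2 value was -0.05 against 0.01 over all genes. Pbx3, a partner of Meis proteins, was nearest, at -0.44 ± 0.12 with an adjusted p of 0.122, and it was called in 4 of 12 settings (adjusted p 0.0218 to 0.37). Foxp4, of the same forkhead subfamily as Foxp1 and Foxp2, stood at -0.22 ± 0.07, and the retinoid receptors Rxrb and Rxra at -0.32 ± 0.14 and -0.09 ± 0.04. Rxrb and Meis3 were the highest of these genes per length, at medians of 3.77 and 2.93 times background. Sp8, the closest relative of Sp9, lay at 1.41 times and Isl2 at 1.31 times.

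Of 20 other transcription factors of the striatal lineage, edgeR also called 0, with a median of -0.12. Sox4 stood at -0.32 ± 0.10 (adjusted p 0.232), and Dlx1 at -0.32 ± 0.11, Dlx5 at -0.31 ± 0.12 and Dlx6 at -0.40 ± 0.17, homeodomain factors of the ganglionic eminence. With the background covariate 1 gene of each list was called, beside 0.597% of all genes. They were Pbx3 at -0.22 ± 0.05 and Zfp521, a zinc finger partner of Ebf proteins, at -0.08 ± 0.02. Zfp521 was called in 2 of 12 settings, and Foxp4, Rxrg and Sox11 in 1 of 12 each. In D2 MS against SS, genes near the threshold were Ebf3 (-0.25 ± 0.08), Rxrg (0.53 ± 0.18) and Ebf4 (-0.17 ± 0.06) among relatives, and Sox11 (0.58 ± 0.19), Foxo1 (0.57 ± 0.19), Mef2a (0.28 ± 0.10) and Mef2d (0.81 ± 0.29) among the others. Their adjusted p in edgeR ran from 0.0713 to 0.074. As given above, a large part of all genes had an unadjusted p under 0.05 in that comparison.

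Likeness of other genes to the members over the libraries was Pearson r of log2 CPM over 61 libraries, given as a description, since all genes share the libraries, their depth and their background. Sp9 was most like Adora2a, the adenosine A2a receptor gene (r = 0.91), and Penk, the enkephalin precursor gene (0.87). Isl1 was most like Pdyn, the dynorphin precursor gene (0.84), and Sstr4, a somatostatin receptor gene (0.81). With group means subtracted, Sp9 was still nearest to Adora2a (0.88), then to Vgf (0.85), and Isl1 to Soga1 (0.77) and Gpr26 (0.76). Subtracted in the same way, Bcl11b was nearest to Atp2b2 and Ppp2r2c (both 0.993), Foxp1 to Nedd4l and Zswim6 (both 0.992), Meis2 to Mbnl2 (0.991) and Runx1t1 (0.990) and Rarb to Celf2 (0.995) and Lrrtm3 (0.993). Six3 was nearest to Prr7 (0.974) and Tmem259 (0.970), Foxp2 to Dcc (0.966) and Diaph2 (0.965) and Zfp503 to Sall2 (0.850) and Ficd (0.842). Ebf1 had an r of 0.900 with Zfp521. Without subtraction the nearest were Atp2b2 and Ppp2r2c for Bcl11b, Zswim6 and Slc22a23 for Foxp1, Runx1t1 and Myt1l for Meis2, Celf2 and Lrrc7 for Rarb, Hpca and Rasl10b for Six3, Grik2 and Pbx3 for Foxp2, Zfp521 and Plcb4 for Ebf1 and Ficd and Sall2 for Zfp503. Among the members themselves, with group means subtracted, Foxp1 and Meis2 were closest (0.98). In the same measure Ebf1 was negative with all the others, from -0.87 with Meis2 to -0.40 with Isl1.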

How the data were processed

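Nuclear RNA of 61 libraries was used. The submitters' processing notes name featureCounts, DESeq2 and mm10. Aligner, tool versions and strandedness were not given in the sources used here, nor the gene annotation. Deposited raw counts per gene were tested. FPKM values, also deposited by the authors, only gave gene lengths. For 54753 of 55329 identifiers that length equalled the whole gene span in GENCODE M21 (relative tolerance 1e-06). Symbols were found for 55141 of 55401 identifiers.

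Counts were fitted with edgeR 4.0.16 in R 4.3.3 (TMM, filterByExpr by group, robust quasi-likelihood, two-sided), with Benjamini-Hochberg adjusted p under 0.05 as the call. D2 against D1 used a joint fit of 61 libraries and 42870 genes. Treatments were compared within D2 (29 libraries, 41125 genes) and within D1 (32 libraries, 41083 genes). The code was tested on simulated data. Alternatives were DESeq2 1.42.0, limma 3.58.1 (voom), DESeq2 size factors, other filters, fits of the 2 groups alone, D1 SS replicate 1 left out, a background covariate and a replicate block; 3 were added after seeing these fits. Likeness used log2 CPM with a prior count of 2.

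The members and lists were chosen with earlier results of these data known. All 10 members are named, with the 4 genes of smallest p in each of the 2 other lists of transcription factors, and the 2 genes most like each member by r. A few genes this rule names are not reported here. No 2 libraries were identical among 1830 pairs, and the labels give no batch.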

Additional observations from a re-analysis of the deposited data

Results flagged for a closer look

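In 11 of 80 combinations of a member and a group, a single library lay further from the rest than Dixon's 95% limit allows, a limit that chance passes in about 1 of 20 groups. Of the 11, 6 were D1 SS replicate 1, the library of lowest background. There Foxp1 had 3215 scaled CPM, against 895 in the next library of its group. Rarb had 2026 (next 658), Meis2 1985 (next 636), Bcl11b 1243 (next 333), Foxp2 1107 (next 517) and Six3 56.7 (next 29.6). These scaled values carry its TMM factor of 0.388.

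D1 MS replicate 2, with the third lowest background of all libraries, was high for 4 members. Bcl11b had 426 scaled CPM there (next 189), Six3 38.0 (next 18.9), Isl1 27.2 (next 15.6) and Zfp503 12.3 (next 7.30). D2 MM replicate 2 was high for Foxp2, at 603 (next 419). The part of background in these values was not tested.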

How the results depend on the processing

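Of 2270 member values under other settings, 1941 kept their call or lay within 1 SE, 273 moved without a call, 54 gained a call and 2 reversed. Within these classes, 298 changed sign with neither value called. The 2 that reversed were Foxp1, D2 over D1, at 0.26 with the background covariate and 0.27 with it and without D1 SS replicate 1. Counts of members called differed from the main ones as follows. D2 against D1 over the 4 treatments gave 4 with the covariate and 4 with it and without D1 SS replicate 1 and 3 with it and the replicate block, against 2. In SS, DESeq2 and DESeq2 size factors gave 6, against 0. In SM, the covariate without that library gave 1, against 0. In MS, leaving that library out gave 2, the covariate 3, both 4 and the replicate block with the covariate 3, against 1. The covariate in MS called 0.224% of all genes. Shares of all genes for the other settings of MS, and for those of SM and MM, are not reported here. In MM, the covariate gave 1, the covariate without that library 3, the replicate block with the covariate 1, the 2 groups alone 1 and leaving out D1 MS replicate 2 gave 1, against 0. For MS against SS in D2, DESeq2 gave 5 and the replicate block 7 (beside 8595 of 41125 genes), against 0. For the difference between classes in MS against SS, DESeq2 gave 6 and leaving out D1 MS replicate 2 gave 5, against 0. The causes were not tested. Over all genes, calls over the 4 treatments were 256 with the covariate, 363 with it and without D1 SS replicate 1 and 231 with it and the block, against 129. In SS they were 8241 with DESeq2 size factors and 9422 with DESeq2, against 20. DESeq2 size factors moved the median of all genes to -0.11 in D1 MM against SS, against -0.04.

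Replicate numbers share only a label. Same-numbered libraries correlated from -0.42 to 0.51 in D2 (median 0.01, 15 of 42 pairs over 0.1) and from -0.58 to 0.74 in D1 (median 0.02, 14 of 45). No block changed the calls of Sp9 and Isl1 over the 4 treatments. Several members lie near background, and 61 to 416 counts per library stand behind Zfp503, Isl1 and Sp9, which limits small differences.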
